A study of Mus musculus with 12 samples.

Results

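The enzymes described here make pyrimidine nucleotides or break them down. They comprise 10 genes: 4 of synthesis (Cad, Dhodh, Umps and Tyms) and 6 of breakdown (Dpyd, Dpys, Upb1, Upp1, Upp2 and Cda). They were taken by symbol from the platform's probe-to-gene table, among 30145 genes that had a feature carrying no other symbol. Each of the 10 had exactly 1 such feature. Expression was measured in livers of 12 C57BL6/J mice aged 12 weeks, with 1 Affymetrix array per mouse. Wild-type (WT) mice were labelled ENT3 +/+ and knockout (KO) mice ENT3 -/-, with 6 mice of each genotype and 3 males and 3 females in each, the sex being read from the letter M or F in the title. ENT3, encoded by Slc29a3, is a nucleoside transporter of intracellular membranes. The labels name no exon, Cre line or litter, and animals are called by the number in their title.

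Pyrimidines are the bases of uridine, cytidine and thymidine nucleotides. Cells make them afresh from glutamine, bicarbonate and aspartate, or salvage nucleosides that transporters bring in. Uracil and thymine are degraded by a reductive pathway that is most active in liver, where they end as beta-alanine and beta-aminoisobutyrate. In synthesis, Cad is the multifunctional protein of the first steps, Dhodh the mitochondrial dehydrogenase that makes orotate, Umps the bifunctional enzyme that turns orotate into UMP, and Tyms the synthase that makes thymidylate from dUMP. In breakdown, Cda deaminates cytidine to uridine, Upp1 and Upp2 are uridine phosphorylases that release uracil, Dpyd reduces uracil and thymine, Dpys opens the reduced ring, and Upb1 releases the beta-amino acid.

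Promoter sequence was available from RefSeq (GRCm38.p6) for 8 of the 10 genes, with 11 start sites in all. None was available for Dhodh or Dpys. Shown here, 5′ to 3′ on the strand of the gene, are the 250 bases before the start of the synthesis gene whose signal fell (Umps), of a breakdown gene whose signal fell (Upb1), and of 2 breakdown genes whose signal did not pass the test for genotype (Dpyd and the second start of Upp2). Capitals mark matches to the motifs searched for.
Umps, chr16:33967039-33967288, minus strand: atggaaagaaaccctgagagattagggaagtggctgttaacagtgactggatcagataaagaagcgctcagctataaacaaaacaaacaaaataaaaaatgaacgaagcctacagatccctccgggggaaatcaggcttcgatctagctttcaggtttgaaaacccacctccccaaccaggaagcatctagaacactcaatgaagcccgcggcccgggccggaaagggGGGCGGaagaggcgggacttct
Upb1, chr10:75406661-75406910, plus strand: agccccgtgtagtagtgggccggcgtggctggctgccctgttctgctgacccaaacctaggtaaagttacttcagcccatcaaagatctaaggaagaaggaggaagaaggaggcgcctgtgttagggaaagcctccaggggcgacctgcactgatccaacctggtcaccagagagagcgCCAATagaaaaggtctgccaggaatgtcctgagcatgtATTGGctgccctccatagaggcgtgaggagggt
Dpyd, chr3:118561930-118562179, plus strand: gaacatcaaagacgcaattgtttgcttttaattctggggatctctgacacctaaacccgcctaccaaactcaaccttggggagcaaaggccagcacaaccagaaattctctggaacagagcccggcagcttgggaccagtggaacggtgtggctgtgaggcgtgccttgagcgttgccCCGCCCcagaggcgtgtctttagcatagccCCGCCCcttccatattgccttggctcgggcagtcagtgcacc
Upp2, chr2:58754934-58755183, plus strand: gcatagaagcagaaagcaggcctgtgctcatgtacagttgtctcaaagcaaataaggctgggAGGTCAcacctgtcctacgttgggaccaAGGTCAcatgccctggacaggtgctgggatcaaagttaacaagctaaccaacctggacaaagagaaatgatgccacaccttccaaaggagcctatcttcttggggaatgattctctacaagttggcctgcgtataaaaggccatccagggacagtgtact

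Each of 7 motifs was searched for on both strands of the same 250 bases before all 32851 listed start sites, and no motif contains another. The GC box GGGCGG was found once before Umps and at 2 places before Dpyd, and 32.7% of all windows held it. It also occurred in windows of Cad, Tyms, Upp1, Cda and the first start of Upp2. The CCAAT box, present in 33.8% of windows, was found at 2 places before Upb1 and once before the first start of Upp2. The nuclear receptor core motif AGGTCA, in 14% of windows, was found at 2 places before the second start of Upp2 and before no other of these genes. The E-box CACGTG, in 6.02% of windows, occurred once before Tyms. The E2F site TTTNGCGC (1.13% of windows), the C/EBP site TTGCNNAA (9.56%) and the NF-kB site GGGNNTTCC (4.98%) had no match in the 11 windows. GC content was 49.6% before Umps, 56.4% before both Upb1 and Dpyd and 49.2% before the second start of Upp2, against a median of 52.4% over all windows. Umps and Upb1, whose signals fell, shared none of the 7 motifs, and Dpys, whose signal also fell, could not be searched. A match describes letters and not a bound factor.

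Some arrays stood apart, and these facts touch the results below. Values are deposited log2 signals with a common ceiling of 19.93. On each array the 95th percentile of the 5222 negative control features, between 6.20 and 6.83, served as the lower limit of clear signal; it was higher by 0.36 in KO arrays (two-sided p = 0.005 by exact permutation within each sex). The poly-A spikes, RNAs added before labelling, were lower by a mean difference of -0.86 in KO arrays (exact permutation p = 0.005, the least possible with 400 arrangements). Of 5 pancreatic acinar markers 4 were measured, and WT females 25 and 27 had means of 10.99 and 9.04 over them against 3.71 to 3.88 on the other 10 arrays, so these livers carried acinar transcripts and results are also given without them. Of 12 macrophage and Kupffer cell markers 10 rose in KO, with array means of 7.23 to 8.50 in WT and 9.10 to 12.73 in KO, the highest in KO female 40. Of 12 neutrophil markers 9 rose, with array means of 4.13 to 4.60 in WT and 4.95 to 8.01 in KO. Of 19 proliferation markers Mki67 alone passed the test, as higher, while the median difference over the list was 0.27. Their array means were 4.33 to 4.42 in WT and 4.44 to 5.46 in KO. Hepatocyte markers were clear on all 12 arrays, with 6 of 10, Alb among them, at the ceiling throughout; 1 of the 10, Asgr1, fell (-0.84; adjusted p = 0.0434), and array means were 18.28 to 18.49 in WT and 18.03 to 18.51 in KO, the lowest in KO female 40. Of 6 endothelial markers 3 rose and 2 fell, with array means of 8.24 to 8.95 in WT and 8.13 to 9.49 in KO. The targeted gene Slc29a3 was lower in KO by -0.94 ± 0.07 (SE; limma adjusted p = 0.000324), within the negative control range in both genotypes, and the labels do not place its probes relative to the disrupted part.

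**Figure D1:**
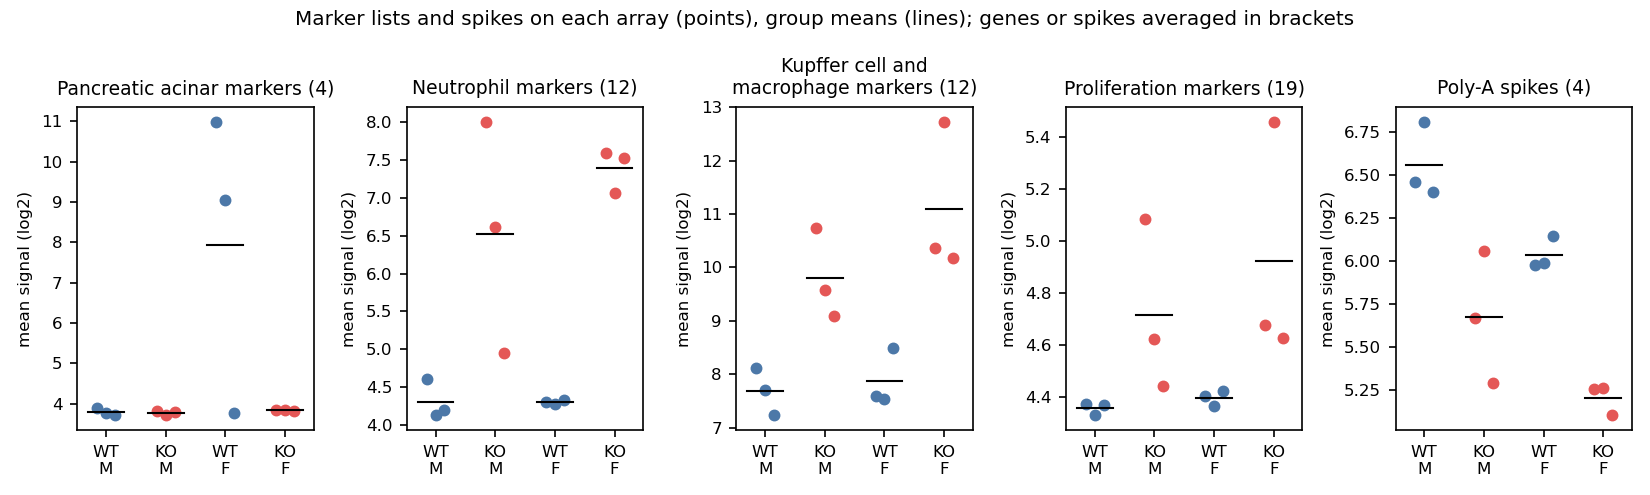
Mean log2 signal (y axis) of marker lists and of the poly-A spikes on each array, by genotype and title letter (x axis); points are arrays and lines are group means. Acinar signal appears on WT females 25 and 27 (10.99 and 9.04), macrophage signal is highest on KO female 40 (12.73), and the poly-A spikes average 5.44 in KO against 6.30 in WT.

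Over both sexes, 3 of the 10 enzymes fell in KO livers and none rose. Dpys and Upb1, the last steps of uracil and thymine breakdown, fell by 1.46 ± 0.25 and by 0.82 ± 0.20 on the log2 scale (SE, 6 KO against 6 WT mice; limma adjusted p = 0.00568 and 0.0283). Umps, the last step of UMP synthesis, fell by 0.59 ± 0.11 (adjusted p = 0.00977). Dpyd, which stands before Dpys in the same pathway, differed by 0.09 ± 0.23 (adjusted p = 0.868). Over all features, 9.75% were called in either direction and 4.47% as lower; with 1 feature per gene, 14.2% were called. Of 5976 genes with clear signal, meaning a mean over the 12 arrays above the highest of the array limits, 36.6% were called and 24.4% were called lower. The share of called features that were higher was 54.1% as deposited, 38.4% after quantile normalization and 38.8% with arrays centred on their medians. In whole liver, fewer cells of a type and less RNA per cell cannot be told apart.

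**Figure D2:**
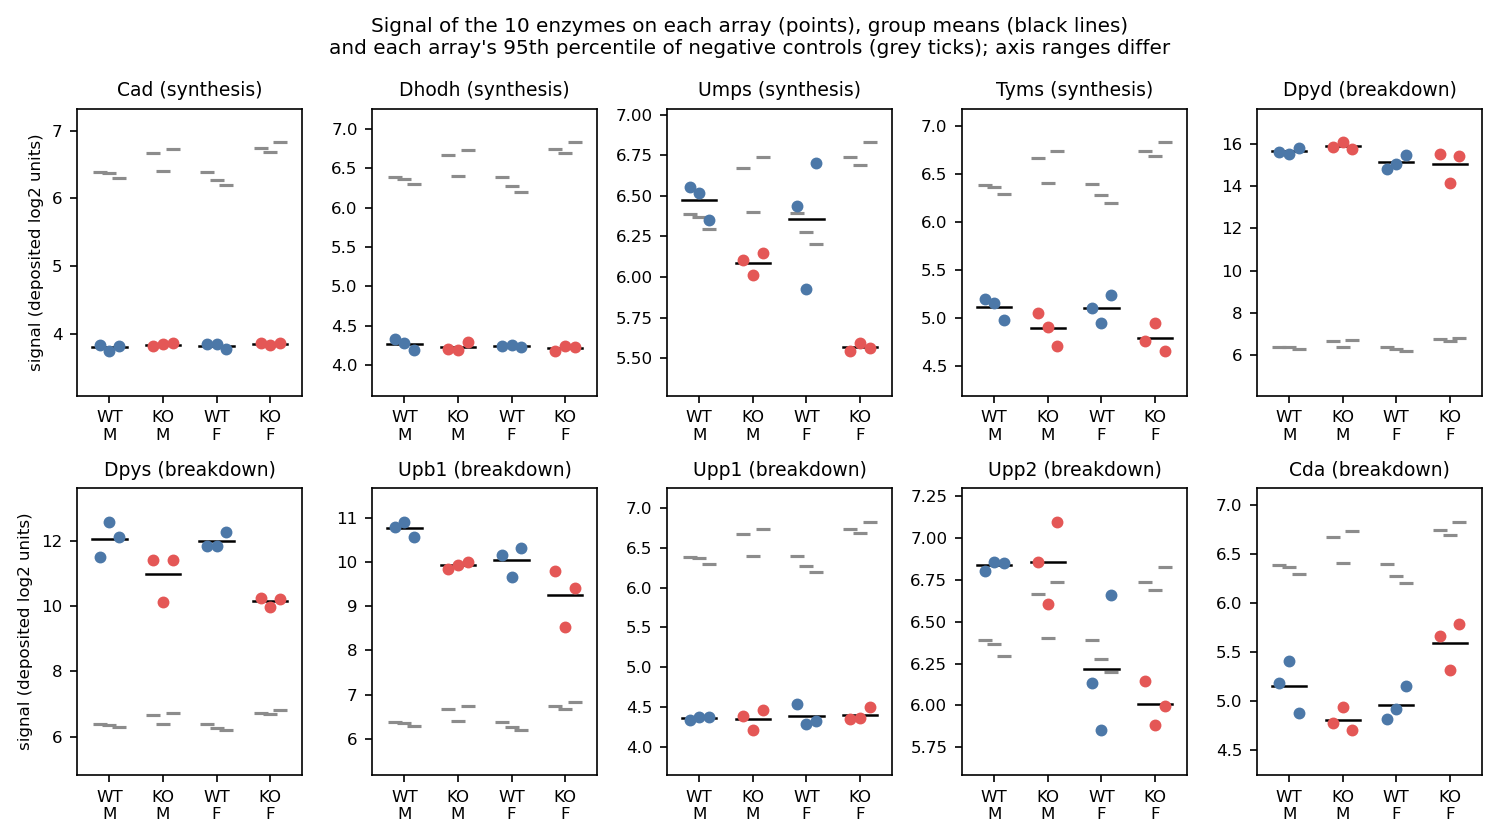
Deposited log2 signal (y axis, ranges differ) of each enzyme on each array, by genotype and title letter (x axis); points are arrays, black lines group means, and grey ticks the 95th percentile of negative controls on the same array. All 6 KO arrays lie below all 6 WT arrays for Dpys, and Cad, Dhodh, Tyms, Upp1 and Cda lie below the grey ticks on all 12 arrays.

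Synthesis began with Cad and Dhodh, for which no difference was detectable. Cad ranged from 3.75 to 3.85 in WT and from 3.82 to 3.87 in KO, and its difference was 0.04 (95% confidence interval -0.05 to 0.12; adjusted p = 0.632), which turned to -0.03 under both other scalings. Dhodh ranged from 4.19 to 4.33 in WT and from 4.18 to 4.29 in KO, a difference of -0.03 (interval -0.12 to 0.06; adjusted p = 0.709). Both genes lay below the 95th percentile of negative controls on all 12 arrays. Their small spread therefore describes signal near background and says little of the transcripts.

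Umps was the synthesis gene that fell. In males it read 6.55, 6.51 and 6.35 in WT and 6.11, 6.01 and 6.14 in KO. In females it read 6.43, 5.93 and 6.70 in WT and 5.54, 5.59 and 5.56 in KO. Within each sex every KO value lay below every WT value, while WT female 27, at 5.93, lay below the KO males. The share of all features so separated within a sex was not counted, for Umps or for the genes below. Signal was above the negative control limit on 5 of 6 WT arrays and on 0 of 6 KO arrays, so the size of the fall is not exact. The fall kept its call when any 1 mouse was left out (-0.69 to -0.50; adjusted p up to 0.0282). Without WT females 25 and 27 it was -0.76 ± 0.07 (adjusted p = 0.00187). With each array's values raised to its own negative control limit the sign turned to 0.21 (adjusted p = 0.0755), because those limits were themselves higher in KO. With 1 floor for all arrays, at the highest limit of 6.83, Umps had no value, since all 12 of its readings lay below it.

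Tyms, whose product is needed for DNA synthesis, did not pass the test. It read 5.20, 5.16 and 4.99 in WT males, 5.06, 4.91 and 4.72 in KO males, 5.11, 4.96 and 5.25 in WT females, and 4.76, 4.96 and 4.66 in KO females. The difference was -0.27 ± 0.08 (adjusted p = 0.0761). Each of the 6 KO mice lay below the WT mean of its own sex, but how many of all features did so was not counted. Tyms passed after quantile normalization (adjusted p = 0.0214) and with arrays centred on their medians (adjusted p = 0.0403). Its difference was 0.01 with the poly-A level as a covariate. All 12 values lay within the negative control range. Mki67, the only 1 of 19 proliferation markers called, was higher in the same KO arrays by 2.13 (limma adjusted p = 0.0437). It was above the negative control limit on only 2 of 12 arrays, with an SD of 1.42 among KO mice, so its size is not exact.

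Breakdown of uracil and thymine begins with Dpyd, whose signal was far above background on all 12 arrays. Dpyd read 15.60, 15.50 and 15.79 in WT males, 15.84, 16.07 and 15.77 in KO males, 14.79, 15.06 and 15.48 in WT females, and 15.53, 14.12 and 15.42 in KO females. KO female 40, at 14.12, was the lowest of all arrays, and it was also the array with the highest macrophage signal. The difference of 0.09 had a 95% confidence interval of -0.43 to 0.60. It was 0.31 without KO female 40 (adjusted p = 0.171), -0.10 without WT females 25 and 27 (adjusted p = 0.893) and -0.25 after quantile normalization (adjusted p = 0.698). No direction can be given for Dpyd.

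Dpys had the lowest adjusted p of the 10 genes. In males it read 11.50, 12.58 and 12.10 in WT and 11.39, 10.12 and 11.40 in KO, and in females 11.83, 11.84 and 12.25 in WT and 10.23, 9.98 and 10.22 in KO. All 6 KO values lay below all 6 WT values, with 11.50 in WT male 17 and 11.40 in KO male 39 the closest; of all features, 1.94% had every KO array below every WT array. The mean fell from 12.02 ± 0.38 to 10.56 ± 0.66 (SD, n = 6), which is 2.75-fold lower on the deposited scale. The call held when any 1 mouse was left out (-1.60 to -1.25; adjusted p up to 0.0172) and without WT females 25 and 27 (-1.60 ± 0.33; adjusted p = 0.0272).

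Upb1, the enzyme after Dpys, read 10.79, 10.91 and 10.57 in WT males and 9.85, 9.93 and 10 in KO males. In females it read 10.16, 9.67 and 10.32 in WT and 9.79, 8.53 and 9.41 in KO. The male groups did not overlap, whereas KO female 13, at 9.79, lay above WT female 27, at 9.67. The mean fell from 10.40 ± 0.46 to 9.59 ± 0.56 (SD, n = 6), 1.76-fold lower. This call was less firm: leaving out WT male 17 or 23, WT female 25 or 38, or KO male 18 or 39 ended it (adjusted p up to 0.0726). It was also lost without WT females 25 and 27 together (-0.95 ± 0.24; adjusted p = 0.0582) and without KO male 19 and WT female 38 together. The Upb1 call ended too after quantile normalization (adjusted p = 0.0521) and with no sex term (adjusted p = 0.0961). Without KO female 40 the fall was 0.64 in size and remained called (-0.64 ± 0.13; adjusted p = 0.0169).

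The nucleoside steps of breakdown did not pass the genotype test over both sexes. Upp1 ranged from 4.29 to 4.54 in WT and from 4.21 to 4.50 in KO, within the negative control range throughout, and its difference of 0.01 (interval -0.13 to 0.15; adjusted p = 0.965) turned to -0.10 after quantile normalization and to -0.06 after centring. Upp2, the phosphorylase known chiefly from liver, was above the negative control limit on 7 of 12 arrays. It read 6.80, 6.86 and 6.85 in WT males, 6.86, 6.61 and 7.10 in KO males, 6.13, 5.85 and 6.66 in WT females, and 6.15, 5.88 and 5.99 in KO females. The genotype difference of Upp2 was -0.10 (interval -0.39 to 0.20; adjusted p = 0.73), and 0.08 without KO male 19 and WT female 38 (adjusted p = 0.663). Cda is described with the sexes below.

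**Figure D3:**
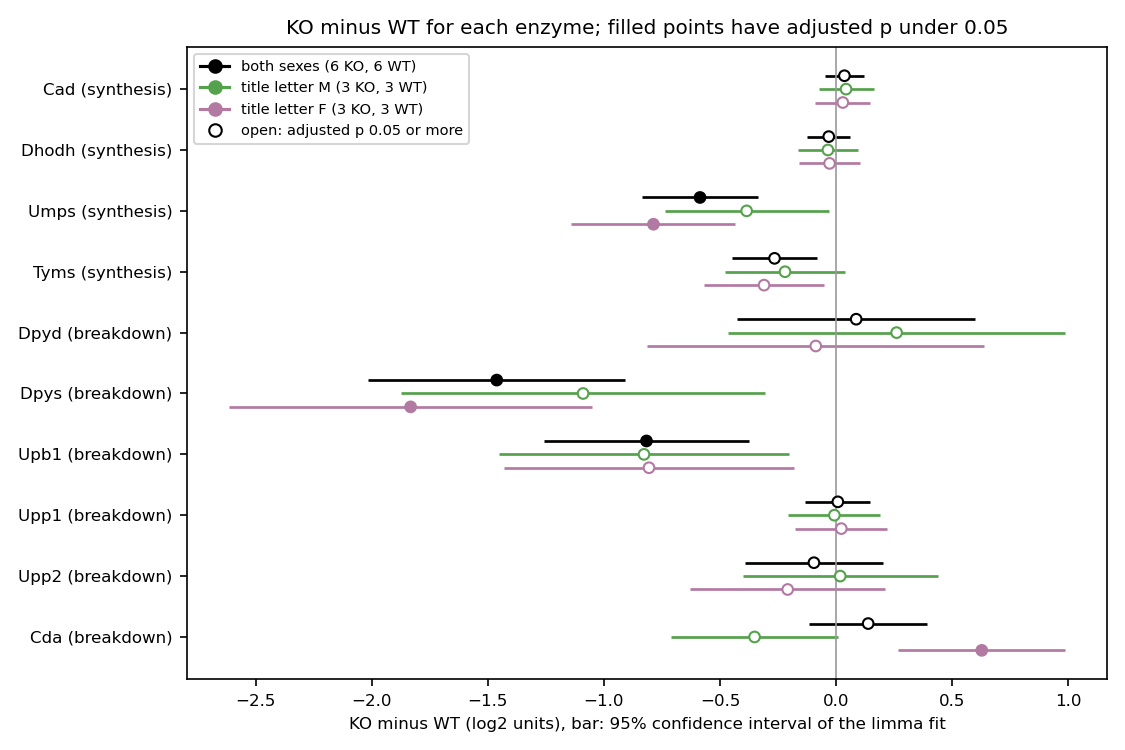
KO minus WT log2 difference (x axis) of each enzyme (y axis) over both sexes and within each title letter; points are limma estimates, bars 95% confidence intervals, and filled points have an adjusted p under 0.05. Filled points are Umps, Dpys and Upb1 over both sexes and Umps, Dpys and Cda in females; none is filled in males.

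Within males, 1.09% of all features were called and none of the 10 enzymes. Dpys differed by -1.09 (95% confidence interval -1.87 to -0.31; adjusted p = 0.204), Upb1 by -0.83 (interval -1.45 to -0.20; adjusted p = 0.23) and Umps by -0.39 (interval -0.74 to -0.03; adjusted p = 0.337). Every KO male lay below every WT male for these 3 genes. The share of all features so separated among males was not counted, so this adds nothing to the test. The intervals leave out 0, and the p-values fail after adjustment over 65956 features. The other male differences lay between -0.35 for Cda and 0.26 for Dpyd.

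Within females, Umps, Dpys and Cda were called, where 6.19% of all features, and 25.9% of genes with clear signal, were called. Dpys fell by 1.83 (adjusted p = 0.0162) and Umps by 0.79 (adjusted p = 0.0198); 3.06% of all features and 18.7% of genes with clear signal were lower in that comparison. Cda rose by 0.63 (adjusted p = 0.0491). Upb1 differed by -0.81 (adjusted p = 0.131) and Tyms by -0.31 (adjusted p = 0.163). The Dpys call was lost without WT female 38 (adjusted p = 0.0688) and without WT females 25 and 27 together (-2.11; adjusted p = 0.0881). The Umps call ended when WT female 25 or 38 or KO female 13 or 69 was left out (adjusted p up to 0.0587), and without WT females 25 and 27 together it was -1.13 (adjusted p = 0.00755).

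Cda had KO minus WT differences of opposite sign in the sexes, of which only that in females passed. In males it read 5.18, 5.41 and 4.87 in WT and 4.77, 4.94 and 4.70 in KO, and in females 4.82, 4.91 and 5.15 in WT and 5.66, 5.32 and 5.79 in KO. All 3 KO females lay above all 3 WT females, while the male groups overlapped with each KO male below the WT male mean. How many of all features were so separated in females was not counted. The effect in females minus that in males was 0.98 ± 0.23, with an unadjusted p of 0.00159 and an adjusted p of 0.367; across the array that test called 1 feature, or 0.00152%. All 12 values lay within the negative control range, so the sizes are not exact. The female call of Cda was lost without WT male 17, any WT female, any KO male, KO female 13 or KO female 69 (adjusted p up to 0.143), and without WT females 25 and 27 together it was 0.44 (adjusted p = 0.405). After quantile normalization it was 0.56 (adjusted p = 0.115) and with centring 0.53 (adjusted p = 0.0976). For Dpys, Umps and Upb1 the effect in females minus that in males was -0.74, -0.40 and 0.02 (adjusted p = 0.855, 0.82 and 1), so that no difference between the sexes was shown for them either.

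Between the sexes over both genotypes, Upp2 was lower in females by -0.74 ± 0.13 (adjusted p = 0.0338), in a comparison that called 1.23% of all features. Male values ran from 6.61 to 7.10 and female values from 5.85 to 6.66, so they overlapped in WT female 38 and KO male 19. The call of Upp2 was kept only without one of those mice, and it was lost when any of the other 10 was left out (adjusted p up to 0.0887) and without WT females 25 and 27 (-0.51; adjusted p = 0.24). Upp2 was above the negative control limit in only 1 of 6 females, so the size is not exact: with values raised to each array's limit it was -0.25 (adjusted p = 0.133), and with 1 floor for all arrays -0.06 (adjusted p = 0.455). Dpyd (-0.70; adjusted p = 0.216), Upb1 (-0.70; adjusted p = 0.15) and Umps (-0.32; adjusted p = 0.248) had female minus male differences that did not pass.

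Synthesis was set against breakdown by subtracting, on each array, the mean of the 6 breakdown genes from that of the 4 synthesis genes. The level of this score has no meaning of its own, since it joins different features. A shift that is equal at all signal levels cancels in it, but 1 that depends on the level does not. The synthesis genes lay near background, and Dpyd, Dpys and Upb1 far above it. In KO arrays the negative control limit was higher by 0.36, while genes with clear signal had a median difference of -0.09. It was -4.06, -4.35 and -4.26 in WT males, -4.05, -3.91 and -4.15 in KO males, -3.80, -3.86 and -4.04 in WT females, and -4.03, -3.38 and -3.97 in KO females. The genotypes overlapped: the KO mean exceeded the WT mean by 0.15, less than the spread of 0.21 (SD) within groups. Without KO female 40 the difference was 0.04, and without WT females 25 and 27 it was 0.22. The synthesis mean was 4.69 ± 0.09 in KO and 4.90 ± 0.09 in WT (SD, n = 6), and the breakdown mean 8.60 ± 0.31 and 8.96 ± 0.25. With breakdown taken as Dpyd, Dpys and Upb1 alone the KO mean of the score exceeded the WT mean by 0.52. The genotypes overlapped here too, from -8.07 to -7.35 in WT and from -7.64 to -6.22 in KO, with SDs of 0.29 and 0.51. KO female 40 was the highest at -6.22, and the next KO array, KO female 69, was at -7.10. No synthesis gene was above the negative control limit on 6 arrays, so a score of clearly measured genes could not be formed.

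Genes that take up the products of Upb1 were examined next. Of 10 genes of beta-alanine and beta-aminoisobutyrate use, 3 fell, 1 rose and 6 did not pass, with a median difference of -0.43, against a median of 0.03 over all genes and -0.09 over genes with clear signal. Of the 10, 6 had clear signal, and the 3 that fell were all among these 6. Over all genes with clear signal 24.4% were called lower, and whether 3 of 6 exceeds that share was not tested. Abat, a transaminase that accepts beta-alanine, fell by 1.43 ± 0.22 (adjusted p = 0.00373), and Aldh6a1, the dehydrogenase of the resulting semialdehydes, fell by 1.52 ± 0.21 (adjusted p = 0.00224). Hibadh, a dehydrogenase of valine breakdown that supplies a substrate of Aldh6a1, fell by 0.98 ± 0.10 (adjusted p = 0.000836). Cndp2, a dipeptidase, rose by 0.47 ± 0.13 (adjusted p = 0.0416), and kept its call only without KO male 39, KO female 13 or KO female 40 (adjusted p up to 0.0979 without the others). Its call also ended under centring (adjusted p = 0.0771), with no sex term (adjusted p = 0.0517), without WT females 25 and 27 (adjusted p = 0.126) and with 1 floor for all arrays, where it was 0.10 (adjusted p = 0.453).

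Salvage returns nucleosides to nucleotides. Of 20 measured genes of salvage and phosphorylation, 4 fell, none rose and 16 did not pass. The median was -0.12, against 0.03 over all genes and -0.09 over genes with clear signal. Of the 20, 7 had clear signal, and of these only Uprt and Nme3 fell, where 24.4% of all such genes were called lower. Uprt, a homologue of uracil phosphoribosyltransferases, fell by 0.98 ± 0.12 (adjusted p = 0.0017), and Nme3, of the nucleoside diphosphate kinase family, by 0.97 ± 0.21 (adjusted p = 0.0155). Nme6, of the same family, fell by 0.32 (adjusted p = 0.0189) and Dtymk, thymidylate kinase, by 0.31 (adjusted p = 0.045), both within the negative control range. The Dtymk call was kept only without WT male 33, KO male 19 or KO female 13 (adjusted p up to 0.106 without the others). Without WT females 25 and 27, Nme3 (-0.99; adjusted p = 0.0777) and Dtymk (-0.38; adjusted p = 0.0682) were not called. Of 12 nucleotidases and nucleoside diphosphatases, 4 of which had clear signal, 2 fell and none rose: Entpd8, a nucleoside triphosphate diphosphohydrolase of the hepatocyte canaliculus, at -1.08 ± 0.11 (adjusted p = 0.000666), and Entpd5, a UDPase of the endoplasmic reticulum, at -1.17 ± 0.24 (adjusted p = 0.0137). Without KO male 19 and WT female 38 together, Nme3, Nme6, Dtymk and Entpd5 were not called. Entpd6 (-0.11; adjusted p = 0.131) and Entpd1 (0.60; adjusted p = 0.194) did not pass. Entpd6 passed after quantile normalization (-0.22; adjusted p = 0.00931) and centring (-0.18; adjusted p = 0.0304), and Entpd1 with each array's values raised to its own limit (0.47; adjusted p = 0.00395).

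Genes that supply building blocks for UMP and thymidylate came next. Of 9 measured genes of carbamoyl phosphate, aspartate, glutamine and PRPP supply, 7 had clear signal. Of the 9, 4 fell, none rose and 5 did not pass. Of the 4 that fell, all but Prps2 had clear signal, and 24.4% of all such genes were called lower. Slc25a13, a mitochondrial aspartate and glutamate carrier, was at -1.53 ± 0.16 (adjusted p = 0.0008), and Got2, the mitochondrial aspartate aminotransferase, at -1.22 ± 0.21 (adjusted p = 0.00601). Prps1 and Prps2, which make the PRPP that Umps uses, were at -0.63 ± 0.10 (adjusted p = 0.00502) and -0.76 ± 0.09 (adjusted p = 0.00103). Prps2 was above the negative control limit on only 6 arrays, so its size is not exact: it was -0.26 with values raised to each array's limit (adjusted p = 0.0307) and -0.11, not called, with 1 floor for all arrays (adjusted p = 0.22). Cps1, the carbamoyl phosphate synthetase of the urea cycle, was at the ceiling on all arrays and could not show a difference. Of 10 measured genes of the folate cycle that serves Tyms, 6 had clear signal, and 3 of the 10 fell and none rose. The hydroxymethyltransferases Shmt2 and Shmt1 were at -1.62 ± 0.16 (adjusted p = 0.00074) and -1.10 ± 0.25 (adjusted p = 0.0208), and Mthfd1, a trifunctional folate enzyme, at -0.97 ± 0.16 (adjusted p = 0.00528). In females Mthfd1 fell by 1.51 (adjusted p = 0.00585), while its male difference was -0.43 (adjusted p = 0.5) and the test between the sexes did not pass (adjusted p = 0.508). With no sex term the Mthfd1 call ended (adjusted p = 0.0728). Shmt1 was not called when WT male 23 or 33 or WT female 38 was left out (adjusted p up to 0.0552), nor without WT females 25 and 27 (-1.21; adjusted p = 0.0759), nor with no sex term (adjusted p = 0.0542). Ggh, a gamma-glutamyl hydrolase, did not pass at -0.26 (adjusted p = 0.0706) but did without WT male 17 (adjusted p = 0.0329) or KO female 40 (adjusted p = 0.0491), after quantile normalization (adjusted p = 0.0256) and under centring (adjusted p = 0.0283).

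Uridine and cytidine nucleotides are also carriers of sugars and lipid head groups. Of 16 measured genes of UDP-sugar and CDP-lipid use, 6 fell, none rose and 10 did not pass, with a median of -0.32 against -0.09 over genes with clear signal. Of the 16, 10 had clear signal, among them all that fell except Galt, and 24.4% of all such genes were called lower. Galt, which exchanges UDP between glucose and galactose, was at -1.04 ± 0.08 (adjusted p = 0.000345), and Ugp2, which makes UDP-glucose from UTP, at -1.32 ± 0.15. Ept1, an ethanolamine phosphotransferase, and Pcyt2, which makes CDP-ethanolamine, were at -1.01 ± 0.13 (adjusted p = 0.00187) and -0.34 ± 0.08 (adjusted p = 0.0188). Galt was -0.43 with values raised to each array's limit and -0.28 with 1 floor for all arrays (adjusted p = 0.00228 and 0.00573). The Pcyt2 call ended under the trended prior (adjusted p = 0.0513), with no sex term (adjusted p = 0.118) and without KO male 19 and WT female 38 (adjusted p = 0.0564). Of 9 transporters of pyrimidine nucleosides and nucleotides, 2 of which had clear signal, 2 fell and 1 rose. The falls were the targeted Slc29a3 and Slc29a1, a nucleoside transporter of the plasma membrane, at -0.48 ± 0.13 (adjusted p = 0.0421), whose call was kept only without WT female 25 or 27 (adjusted p up to 0.0938 without the others). Slc25a36, a mitochondrial carrier of pyrimidine nucleotides, rose by 0.42 ± 0.10 (adjusted p = 0.0226) within the negative control range, with a call that ended when WT male 17 or 23, WT female 38 or KO male 18 was left out (adjusted p up to 0.0593). Its relative Slc25a33 was at 0.43 ± 0.13 (adjusted p = 0.0599), and passed without WT female 25 (adjusted p = 0.0189) or KO male 39 (adjusted p = 0.0461). Slc25a33 rose by 1.10 in females (adjusted p = 0.00821), its male difference was -0.23 (adjusted p = 0.685), and the test between the sexes did not pass (adjusted p = 0.271).

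**Figure D4:**
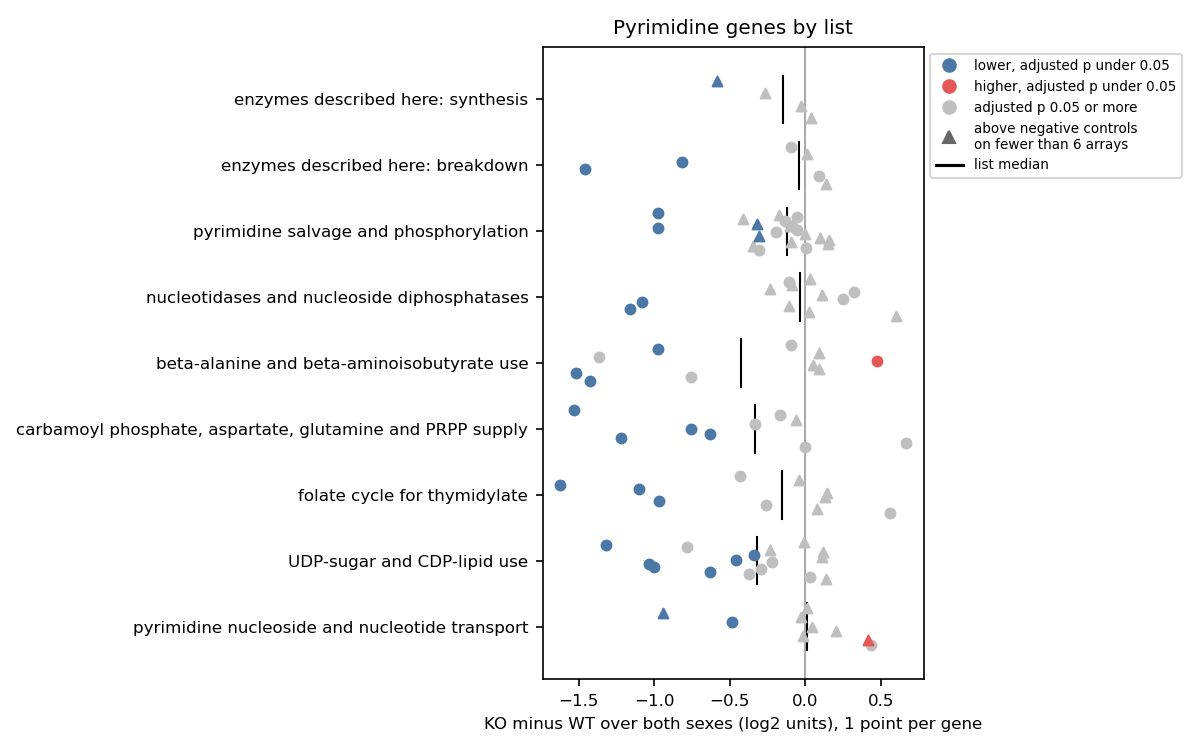
KO minus WT log2 difference over both sexes (x axis) of each measured gene in each pyrimidine list (y axis); each point is 1 gene, colours mark an adjusted p under 0.05, triangles mark genes above the negative controls on fewer than 6 arrays, and black lines are list medians. Of 10 genes of beta-alanine use 3 fell, and of 16 genes of UDP-sugar and CDP-lipid use 6 fell.

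Genes whose signal followed an enzyme most closely over the 12 arrays were taken by Pearson's r among up to 4533 genes above the negative control limit on 6 or more arrays and never at the ceiling. These correlations run over arrays that differ in genotype, sex and signal level, and r about the 4 group means is given after each. Genes picked to follow an enzyme that fell tend to fall by that choice, so their falls and adjusted p-values are no separate support. For Dpys they were Gstt2, a glutathione transferase (0.97 and 0.92), and Dhrs4, a carbonyl reductase (0.97 and 0.88), which fell by 1.58 (adjusted p = 0.00677) and 1.72 (adjusted p = 0.00173). For Umps they were Dnajc22, a J-domain protein (0.98 and 0.91), and F13b, a subunit of coagulation factor XIII (0.97 and 0.94). Dnajc22 fell by 0.52 (adjusted p = 0.00689) and F13b by 0.49 (adjusted p = 0.04), the latter called only without WT female 27 when 1 mouse was left out (adjusted p up to 0.088 without the others). Near the negative control limit the size for Dnajc22 is not exact, and its call ended with values raised to each array's limit (-0.11; adjusted p = 0.369) and with 1 floor for all arrays (-0.08; adjusted p = 0.238). For Upb1 they were Tmem230 (0.95 and 0.84), which fell by 0.30 (adjusted p = 0.0177) but was at 0.0031 with values raised to each array's limit (adjusted p = 0.99) and at -0.0016 with 1 floor for all arrays (adjusted p = 0.98), and Proz, a vitamin K-dependent plasma protein (0.95 and 0.96), which did not pass at -0.91 (adjusted p = 0.112) but did without KO female 40 (adjusted p = 0.0479). For Dpyd they were Masp1, a protease of the lectin pathway of complement (0.95 and 0.95), and Fastkd1 (0.94 and 0.93), neither of which passed (adjusted p = 0.727 and 0.748). For Upp2 they were Isoc2a (0.92 and 0.93) and Slc46a3 (0.90 and 0.63), and neither passed (adjusted p = 0.737 and 0.131), although Slc46a3 did without WT female 25 (adjusted p = 0.0471). The 5 genes within the negative control range had Utrn and Prg4 (Cad), Gtf2e2 and Pdcd6 (Dhodh), Acp2 and Commd4 (Tyms), Snf8 and B3gnt3 (Upp1) and R3hdm1 and Ltv1 (Cda) as their closest, at r from 0.74 to 0.95.

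The falls of Umps, Dpys and Upb1 stand beside the lower poly-A spikes and the higher macrophage and neutrophil signal of the same KO arrays, and beside endothelial markers that moved both ways, whose part in them was not tested. With the poly-A level as a covariate, 3 features of 65956 were called and none of these genes: Umps was at -0.54 ± 0.29 (adjusted p = 0.642), Dpys at -2.02 ± 0.62 (adjusted p = 0.363) and Upb1 at -0.72 ± 0.52 (adjusted p = 0.756).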

How the data were processed

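Total RNA from 12 livers was fragmented, biotinylated and hybridised to Affymetrix arrays, per the labels' protocols. The deposited values are log2 signals per feature, for which the submitters' processing notes name the program Transcriptome Analysis Console. Its version, the normalization, the background step and the annotation build are not stated there, in the labels or in the file headers. The deposited log2 scale runs past what a 16-bit scanner can give, so fold differences are those of that scale. Depth does not apply to arrays: their number limits the precision.

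Of 72688 features, 65956 transcript features were tested and controls were kept out. Of these, 30604 had 1 symbol, 2146 several and 33206 none. One model of 4 group means (genotype by sex) was fitted with limma 3.58.1 in R 4.3.3 (lmFit, eBayes; 8 residual degrees of freedom), and p-values were adjusted by Benjamini-Hochberg over all 65956 with a threshold of 0.05. No low-signal filter was used. Genes have clear signal where their mean over 12 arrays exceeded the highest array's 95th percentile of negative controls, a definition chosen after seeing the data because the limit was higher in KO arrays. The triangles and profile comparisons use each array's own limit on 6 arrays. For 4 measures per array, genotype labels were exchanged within each sex in an exact two-sided permutation test of 400 arrangements (adjusted p = 0.00667 for the spikes and the negative control limit). The fit was tested on simulated data. Chromosome and promoter data came from RefSeq tables of GRCm38.p6.

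The enzymes and all gene and marker lists were chosen with earlier results of these data known. Named genes are the 10 enzymes, Slc29a3, in each list up to 4 measured genes of smallest unadjusted p (or, with none under 0.05, the 2 with most signal), and for each enzyme the 2 genes of highest r, leaving out predicted genes and genes at the ceiling; markers named are Alb, Asgr1 and Mki67, chosen after their values were seen. Alternatives changed scaling, filter, floor, prior, array weights, sex term and poly-A level, and left out mice; the floor common to all arrays and the omission of WT females 25 and 27 were chosen after seeing the data. No mouse number occurs in more than 1 group, so mice were not paired.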

Additional observations from a re-analysis of the deposited data

Results flagged for a closer look

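Of 22 groups of 6 arrays examined for a value far from its neighbours, 3 held one. Chance alone marks about 1 in 20 of separate, uniform groups. These groups pool the sexes and the score contains Dpyd, so that rate is only a guide. Dpyd in KO female 40, at 14.12, lay far below the other KO arrays. The synthesis minus breakdown score of the same mouse, at -3.38, lay far above the others, and this mouse had the highest macrophage marker mean, 12.73. Upp1 in WT female 25, at 4.54, lay above the other WT arrays, within the negative control range; this mouse carried the acinar transcripts. Cda had opposite genotype effects in the sexes, differing by 0.98, with all KO females above and all KO males below the WT mean of their sex, but the test of that difference gave an adjusted p of 0.367.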

How the results depend on the processing

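Over both sexes, the falls of Dpys and Umps kept their direction and stayed past the limma threshold under every alternative run except the poly-A spike covariate and, for Umps, the floor at each array's own control limit. A floor common to all arrays gave no value for Umps. No paired analysis was possible because no animal number occurs in more than 1 group. Averaging all features of a gene was not run and would change nothing, since each enzyme has 1 feature. A score over measured members alone gave no value. Where a count moved or a sign turned, the cause was not tested unless it is stated here. The log2 differences named below are KO minus WT unless said otherwise. Of those that turned sign, only Umps (over both sexes and in females), Dtymk and Tmem230 had been called in the same comparison.

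The fit called 716 features in males, 4083 in females, 808 by sex, and 1 for the difference between the sexes in the KO effect. Quantile normalization gave 1089 in males and 0 for the difference between the sexes by limma (4204 at an unadjusted p under 0.05). It turned Cad to -0.032, Dpyd to -0.25 and Upp1 to -0.10 over both sexes, Cad to -0.00024, Dpyd to -0.11 and Upp2 to -0.046 in males, and Cad to -0.065 and Upp1 to -0.10 in females. Centring each array gave 4 features for the difference between the sexes. It turned Cad to -0.033 and Upp1 to -0.061 over both sexes, Cad to -0.00031 and Upp2 to -0.025 in males, Cad to -0.065 and Upp1 to -0.072 in females, and the female minus male difference of the Upb1 effect to -0.029.

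The filter on low signal, which tests fewer features, gave 1649 in males, 1399 by sex and 21 for the difference between the sexes. The floor at each array's own control limit gave 1611 in males and 14 for the difference between the sexes. Because that limit is higher in KO arrays, signal raised to it is raised further in KO by construction: Umps became 0.21 over both sexes, 0.13 in males, 0.28 in females, 0.15 for the difference between the sexes and 0.074 by sex. Under the same floor Upp2 became 0.16 over both sexes and 0.31 in females, and Tmem230 0.0031 over both sexes. A single floor for all arrays, added after seeing the data, gave 3820 features over both sexes, 1253 in males and 33 for the difference between the sexes. It turned Upp2 to 0.042 over both sexes.

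The trended, robust prior called 0 features for the difference between the sexes by limma (4202 at an unadjusted p under 0.05). Array weights also called 0 there by limma (4760 at an unadjusted p under 0.05) and 1087 in males, and turned Upp1 to 0.0048 in males and Dpyd to 0.063 in females.

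Once the level of the poly-A spikes entered the fit, limma called 3 features over both sexes, 74 in females, 15 by sex, 5 for the difference between the sexes and 0 in males (5125 at an unadjusted p under 0.05). The spike level and genotype overlap, so this fit separates them poorly. The differences of Umps, Dpys and Upb1 over both sexes kept their sign, and their SEs rose. Over both sexes Cad became -0.032, Tyms 0.014, Upp1 -0.23 and Dtymk 0.13. In males Cad became -0.027, Tyms 0.068, Upp2 -0.21 and Cda 0.060, and in females Cad -0.037, Dpyd 0.019 and Upp1 -0.21.

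Without KO male 19 and WT female 38 together, 1130 features were called in males, 1959 in females and 57 for the difference between the sexes. The calls of Upb1, Entpd5, Nme3, Nme6, Dtymk, Cndp2, Pcyt2, Slc29a1, Slc25a36, F13b and Tmem230 over both sexes ended. So did the female calls of Umps and Cda. Upp2 became 0.078 and Isoc2a 0.066 over both sexes, Upp1 0.064 in males, and Dpyd 0.096, Upp1 -0.0080 and Upp2 0.014 in females. Without WT females 25 and 27, an alternative added after seeing the data, 1622 features were called in females, 30 by sex and 0 for the difference between the sexes by limma (4407 at an unadjusted p under 0.05). Dpyd became -0.097 over both sexes, and the difference between the sexes for Upb1 -0.25. The KO minus WT difference of the synthesis minus breakdown score moved from 0.15 to 0.52 when Dpyd, Dpys and Upb1 alone stood for breakdown.

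Leaving out 1 mouse at a time gave 161 to 938 features in males, 1581 to 4563 in females, 215 to 1159 by sex, and 0 to 55 for the difference between the sexes. It moved Upp1 from -0.018 to 0.047 over both sexes, from -0.059 to 0.064 in males and from -0.026 to 0.10 in females. Upp2 moved from -0.19 to 0.016 over both sexes, from -0.10 to 0.14 in males and from -0.39 to 0.014 in females. Dpyd moved from -0.040 to 0.31 over both sexes and from -0.34 to 0.36 in females, Isoc2a from -0.20 to 0.013 and Fastkd1 from -0.17 to 0.033 over both sexes, and the difference between the sexes for Upb1 from -0.25 to 0.38. Signal over background limits Umps, Upp2, Prps2, Dnajc22 and the other features near or below the negative control limit: differences there are those of the deposited values, and their size is not exact.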
